A study of Mus musculus with 8 samples.

Results

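The 10 genes described here encode the core of the transforming growth factor beta (TGF-beta) pathway: the ligands Tgfb1, Tgfb2 and Tgfb3, the receptors Tgfbr1, Tgfbr2 and Tgfbr3, and the SMAD proteins Smad2, Smad3, Smad4 and Smad7. They were chosen by name for their place in the pathway, by a rule that uses no measured value, but with earlier results of these data known. They are 10 of the 27179 gene identifiers in the deposited count table, and all 10 were among the 14382 genes with enough counts to be tested.

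TGF-beta is secreted in a latent complex, is released by integrins and proteases, and binds a pair of type II receptors (Tgfbr2), which then phosphorylate a pair of type I receptors (Tgfbr1). The activated type I receptor phosphorylates Smad2 and Smad3, which enter the nucleus with Smad4 and change transcription, while Smad7 is induced by the signal and blocks the receptor. In mammary tumours the pathway is known for restraining epithelial growth, for driving matrix production and epithelial to mesenchymal transition, and for suppressing T cells.

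The samples were whole primary tumours of 4T1.13, a metastatic murine mammary carcinoma line, which grew from 100000 cells placed in the mammary fat pad of young adult female BALB/c mice. The labels put their recovery at day 14, and the methods of the study give an earlier day. In the 4 miR-21-KD tumours the cancer cells carried a lentiviral vector (miArrest) for an RNA that binds and sequesters mature miR-21, and in the 4 vector control (VC) tumours they carried the same vector with a scrambled sequence. Each line was a pool of clones grown under hygromycin, the reporter mCherry was present in both, the inserted RNA was driven by the H1 promoter, and the vector was in the cancer cells and not in the host cells of the tumour. The question put to the genes here was whether their transcripts differed between miR-21-KD and VC tumours at the start of regression of the miR-21-KD tumours.

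The total count was between 12134849 and 13592695 reads per tumour, and a count of 0 allows a level of up to 0.221 to 0.247 CPM (reads of a gene relative to the library total), which covers counting error only. The levels given here are CPM after scaling of the libraries by TMM. The miR-21 precursor gene Mir21a had a count of 0 in each of the 8 tumours, and mature miR-21, which the vector sequesters, has no row of its own in the table. The tumours expressed epithelial markers, as a mammary carcinoma does, with a summed level over 10 genes of 1308 to 2279 CPM in VC and 1138 to 2136 CPM in miR-21-KD tumours (8 genes higher, 1 lower). Krt8 and Krt18 held 92.1% of the mean sum of the VC group and 53.9% of that of the miR-21-KD group, and the 8 higher genes were all the others. Of the host cell markers, the summed level of 11 fibroblast markers was 3252 to 8436 CPM in VC and 10918 to 24294 CPM in miR-21-KD tumours (9 higher, 0 lower), that of 12 macrophage and monocyte markers was 3079 to 4435 and 6123 to 9379 CPM (10 higher, 0 lower), and that of 10 T cell markers was 51.4 to 190 and 165 to 341 CPM (7 higher, 0 lower). Of the tested markers of other cell types, those higher were 4 of 5 for regulatory T cells, 2 of 6 for NK cells, 3 of 7 for dendritic cells, 2 of 9 for endothelium, 5 of 8 for pericytes and smooth muscle (with 1 lower), 7 of 7 for adipocytes, 1 of 3 for platelets and megakaryocytes, 0 of 4 for B cells and 0 of 6 for neutrophils. No listed marker of any cell type was at a count of 0 in all tumours. In RNA of whole tumours, fewer cells of a type and less RNA per cell cannot be told apart.

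The sequence that the knockdown acts on is shown first, together with its matches in the receptors. Mature miR-21a-5p (RefSeq, GRCm38.p6, chr11:86584120-86584141, minus strand) is printed with its seed, bases 2 to 8, in capitals. The letters complementary to the seed, ATAAGCT, were searched on the transcribed strand of the longest annotated 3′ UTR of each gene (GENCODE M21, GRCm38), and were found once each in Tgfbr1, Tgfbr2 and Smad7 and in none of the other 7 members. The sites of both receptors are printed with 10 bases on either side and the match in capitals. That of Tgfbr1 lies at chr4:47412725-47412751 on the plus strand, and that of Tgfbr2 at chr9:116090126-116090152 on the minus strand.
mmu-miR-21a-5p: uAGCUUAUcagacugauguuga
Tgfbr1 3′ UTR site: acctgcttaaATAAGCTcttgtgctat
Tgfbr2 3′ UTR site: ctgtcatggcATAAGCTgtgctagcac
The match began at base 1958 of 4154 in the UTR of Tgfbr1 and at base 236 of 6085 in that of Tgfbr2. Among 13347 tested genes with an annotated 3′ UTR, 1036 (7.76%) held a match, and their median log2 fold change between miR-21-KD and VC tumours was 0.02, against -0.01 for the genes without one. The genes with a match had longer UTRs, with a median of 2824 against 1082 bases. Of the 3 members that held a match, Tgfbr1 was lower in miR-21-KD tumours, and Tgfbr2 and Smad7 did not pass the test. A match of letters is a description and not evidence of a functional site.

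The promoters of Tgfbr1 and Smad3 are shown because these were the members that were lower in miR-21-KD tumours. Each sequence runs from 250 bases before to 50 bases after the annotated start (RefSeq, GRCm38.p6). That of Tgfbr1 is chr4:47352972-47353271 on the plus strand, and that of Smad3 is chr9:63757945-63758244 on the minus strand. The short SMAD-binding letters GTCT and their reverse complement AGAC are in capitals.
Tgfbr1 promoter: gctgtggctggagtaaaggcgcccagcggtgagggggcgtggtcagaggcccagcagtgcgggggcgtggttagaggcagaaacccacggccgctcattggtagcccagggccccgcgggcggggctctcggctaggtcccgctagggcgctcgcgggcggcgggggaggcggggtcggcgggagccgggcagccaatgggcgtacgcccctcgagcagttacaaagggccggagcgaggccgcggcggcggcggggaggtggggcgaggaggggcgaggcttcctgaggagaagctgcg
Smad3 promoter: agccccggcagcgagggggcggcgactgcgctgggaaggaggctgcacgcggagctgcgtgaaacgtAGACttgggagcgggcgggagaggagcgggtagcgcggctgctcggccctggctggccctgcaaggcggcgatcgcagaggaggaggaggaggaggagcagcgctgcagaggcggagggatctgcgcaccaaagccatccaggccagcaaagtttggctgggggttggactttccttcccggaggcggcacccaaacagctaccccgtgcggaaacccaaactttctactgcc
The Tgfbr1 sequence held 0 and the Smad3 sequence 1 of these matches, whereas 87.982% of 32851 promoters of the same length held at least 1, with a median of 2. The longer form, CAGAC or GTCTG, which overlaps the short form, was in 49.594% of promoters and in neither of these. Promoter sequences were examined for 5 of the 10 members. A further start of Tgfbr1, at chr4:47385966-47386265, held 2 short matches and 1 long match. The other members examined held between 1 and 3 short matches, with 3 in Tgfb2 and 1 each in Tgfb1 and Tgfbr2. The GC content was 74.67% in the Tgfbr1 promoter and 67.67% in that of Smad3, against a median of 52.67% over all promoters.

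Of the 10 members, 1 was higher and 2 were lower in miR-21-KD than in VC tumours at an adjusted p under 0.05 (edgeR quasi-likelihood test, adjusted by Benjamini-Hochberg over all genes tested). Tgfb1 was the member that rose, and Tgfbr1 and Smad3 were those that fell. Over all 14382 genes tested, 39.1% passed in either direction, 19.6% as higher and 19.5% as lower, beside 3 of the 10 members. With 1 tumour left out, 2 or 3 members passed beside 20.1 to 46.8% of all genes. Tgfbr1 and Smad3 passed each time, and Tgfb1 only without VC tumour 4 or miR-21-KD tumour 2. Without miR-21-KD tumour 3, the members that passed were Tgfbr1, Smad3 and Tgfb3, all 3 of them lower, beside 25.8% of all genes. The median log2 fold change of the members was 0.02 and that of all genes was -0.01. The CPM values of the groups did not overlap for 4 members, with 2 (Tgfb1 and Smad2) above and 2 (Tgfbr1 and Smad3) below in miR-21-KD tumours. Such separation was seen in 35.1% of all genes tested, as higher in 16.4% and as lower in 18.8%. With DESeq2 in place of edgeR, 5 members passed, 2 higher and 3 lower, with Smad2 and Tgfb3 added, and 45.7% of all genes tested there passed.

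**Figure D1:**
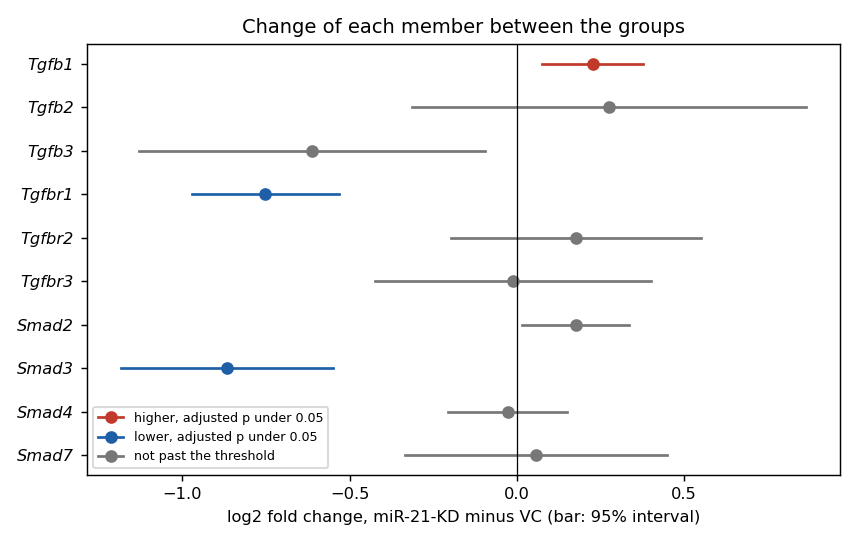
Log2 fold change of each member, miR-21-KD minus VC (horizontal axis), with its 95% interval as a bar, from 4 tumours a group. The intervals of Tgfbr1 and Smad3 lie wholly below 0 and that of Tgfb1 wholly above it, and those of Tgfb3 and Smad2 exclude 0 although neither passed after adjustment over all genes.

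Among the ligands, Tgfb1, the form produced by most cell types of a tumour, was modestly higher in miR-21-KD tumours. Its level was 136, 140.1, 141 and 147 CPM in VC tumours 1 to 4 and 167, 163, 168 and 163 CPM in miR-21-KD tumours 1 to 4. Every miR-21-KD tumour was above every VC tumour, and the spread within a group was small. The group means were 141 ± 4.83 and 165 ± 2.78 CPM (SD, n = 4 each), so the log2 fold change was 0.23 (SE 0.07, 95% interval 0.07 to 0.38, adjusted p = 0.0288). The call was lost when VC tumour 1, 2 or 3 or miR-21-KD tumour 1, 3 or 4 was left out, with log2 fold changes of 0.21 to 0.23 and adjusted p between 0.0574 and 0.0874, and without the filter on low counts, with an adjusted p of 0.0959. In 66.8% of the genes tested, the log2 fold change was larger in size than that of Tgfb1. Tgfb1 (Entrez 21803) lies at chr7:25687002-25705077 in GRCm38.p6.

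Tgfb3, a ligand with known roles in palate development and mammary involution, had a lower mean in miR-21-KD tumours but did not pass the test. Its level was 142, 241, 154 and 138 CPM in VC tumours 1 to 4 and 93.4, 83.7, 145 and 119 CPM in miR-21-KD tumours 1 to 4. VC tumour 2 was far above the other 3, and miR-21-KD tumour 3 lay within the range of the VC group. The means were 169 ± 48.6 and 110 ± 27.4 CPM (SD, n = 4 each), with a log2 fold change of -0.61 (SE 0.23, 95% interval -1.13 to -0.10, adjusted p = 0.0598). Without VC tumour 2 the log2 fold change was -0.40 (adjusted p = 0.141). The adjusted p was 0.0370 with DESeq2, 0.0489 with scaling by library size alone and 0.0443 without miR-21-KD tumour 3, and at or above the threshold under the other 12 alternatives. Part of the exons of Tgfb3, 12.4%, is shared with annotated genes on the opposite strand, and whether the counting used strand is not given in the sources used here. Tgfb3 lies at chr12:86056743-86079041.

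Tgfb2 was the rarest member, with raw counts of 52 to 118 reads per tumour. Its level was 5.38, 5.34, 5.12 and 4.23 CPM in VC tumours 1 to 4 and 9.52, 4.87, 4.62 and 5.31 CPM in miR-21-KD tumours 1 to 4. miR-21-KD tumour 1 stood above the other 7, and the other 3 miR-21-KD tumours lay among the VC tumours. The log2 fold change was 0.28 (SE 0.26, 95% interval -0.31 to 0.87, adjusted p = 0.417), and it was -0.02 without miR-21-KD tumour 1. Tgfb2 lies at chr1:186622787-186709697.

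**Figure D2:**
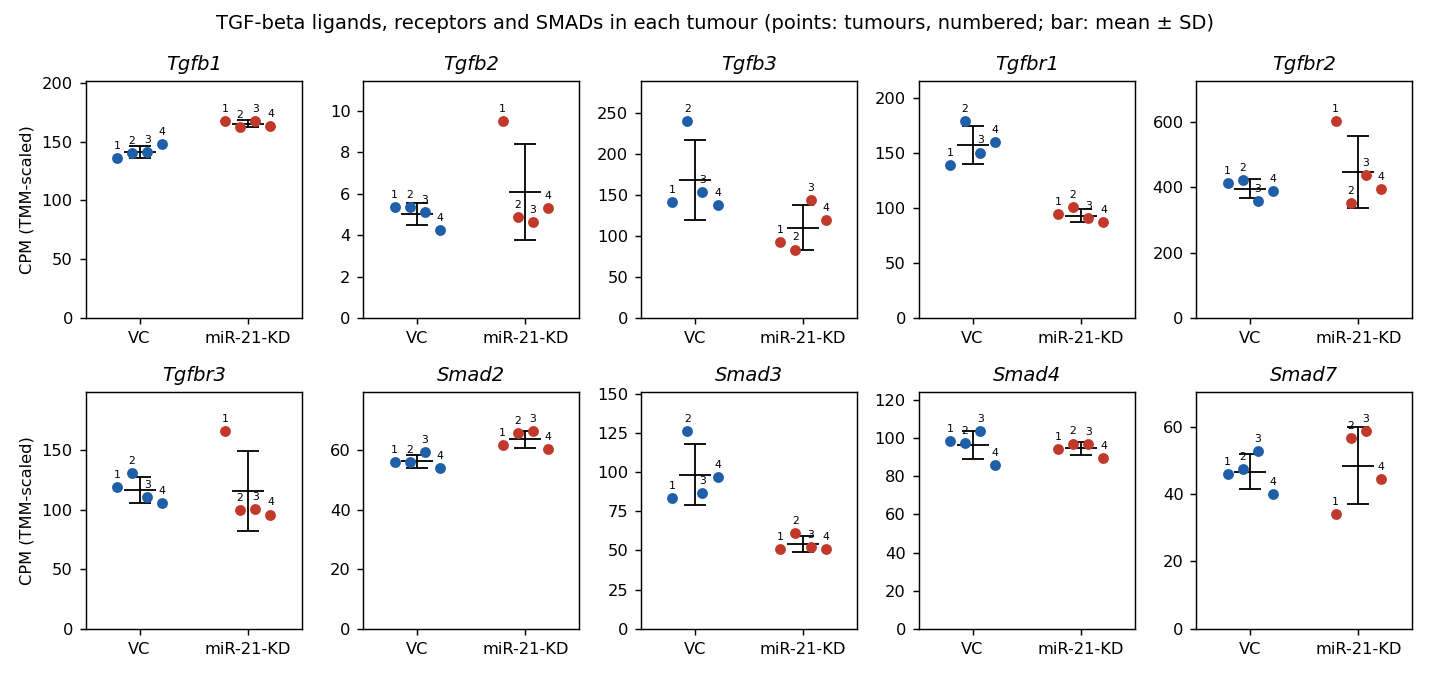
Level of each member in CPM scaled by TMM (vertical axes, each from 0) in every tumour, with the tumour's number above its point and the mean ± SD of the 4 tumours of a group as a bar. Tgfb1 and Smad2 in miR-21-KD tumours lie above all VC tumours, Tgfbr1 and Smad3 lie below all of them, and miR-21-KD tumour 1 is the highest point for Tgfb2, Tgfbr2 and Tgfbr3.

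Among the receptors, the type I receptor Tgfbr1, the kinase that phosphorylates Smad2 and Smad3, was lower in every miR-21-KD tumour. Its level was 138, 179, 150.2 and 159 CPM in VC tumours 1 to 4 and 94.3, 100.4, 90.6 and 87.2 CPM in miR-21-KD tumours 1 to 4. The lowest VC tumour was above the highest miR-21-KD tumour, and the miR-21-KD tumours were close to one another. The group means were 157 ± 17.2 and 93.1 ± 5.66 CPM (SD, n = 4 each), and the fitted level was 0.594 of that in VC, or -0.75 as a log2 fold change (SE 0.10, 95% interval -0.97 to -0.53, adjusted p = 0.00501). The call held under all 15 alternatives, with the log2 fold change between -0.81 and -0.69 and the adjusted p at most 0.0224 when 1 tumour was left out. Of the genes tested, 26.0% had a larger change in size. Tgfbr1 lies at chr4:47353222-47414926.

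Tgfbr2, the type II receptor that binds the ligand, was the member with the most reads, and its groups overlapped. Its level was 411, 423, 359 and 388 CPM in VC tumours 1 to 4 and 603, 351, 437 and 395 CPM in miR-21-KD tumours 1 to 4. miR-21-KD tumour 1 was the highest of all and miR-21-KD tumour 2 the lowest. The log2 fold change was 0.18 (SE 0.16, 95% interval -0.20 to 0.55, adjusted p = 0.414), and it was -0.0018 without miR-21-KD tumour 1. Tgfbr2 lies at chr9:116087695-116175363.

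Tgfbr3 encodes betaglycan, a co-receptor that presents the ligand to the type II receptor. Its level was 119, 131, 111 and 106 CPM in VC tumours 1 to 4 and 166, 99.9, 101 and 96.1 CPM in miR-21-KD tumours 1 to 4. Again miR-21-KD tumour 1 was the highest of the 8, whereas the other 3 miR-21-KD tumours were below all VC tumours. The means were 117 ± 11.1 and 116 ± 33.6 CPM (SD, n = 4 each), with a log2 fold change of -0.01 (SE 0.18, 95% interval -0.42 to 0.40, adjusted p = 0.966), and the sign of this value turned under several alternatives. Without miR-21-KD tumour 1 it was -0.24 (adjusted p = 0.0899). The difference between Tgfbr1 and the other receptors in their response was not tested. Tgfbr3 lies at chr5:107106567-107289629, and 4.54% of its exon bases are shared with another annotated gene.

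Among the SMADs, Smad3, which binds DNA and carries the ligand's signal to many target genes, was lower in every miR-21-KD tumour and had the largest change of the 10 members. Its level was 83.5, 126, 86.7 and 97.1 CPM in VC tumours 1 to 4 and 51.2, 61.4, 52.2 and 50.9 CPM in miR-21-KD tumours 1 to 4. VC tumour 2 was the highest, the lowest VC tumour was above the highest miR-21-KD tumour, and 3 of the miR-21-KD tumours were nearly level. Means of 98.3 ± 19.3 CPM for VC and 53.9 ± 5.02 CPM for the knockdown (SD, n = 4 each) came with a fitted level of 0.548 of that in VC, or -0.87 as a log2 fold change (SE 0.14, 95% interval -1.18 to -0.55, adjusted p = 0.00603). The call held under all 15 alternatives, and with 1 tumour left out the log2 fold change was between -0.94 and -0.73 with an adjusted p of at most 0.0236. Of the genes tested, 21.9% had a larger change in size. Smad3 lies at chr9:63646766-63757994.

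Smad2, the other receptor-activated SMAD of the pathway, had a slightly higher mean in miR-21-KD tumours but did not pass the test. Its level was 56.1, 56.0, 59.3 and 53.9 CPM in VC tumours 1 to 4 and 61.9, 65.9, 66.4 and 60.3 CPM in miR-21-KD tumours 1 to 4. Every miR-21-KD tumour was above every VC tumour, by little between VC tumour 3 and miR-21-KD tumour 4. The means were 56.3 ± 2.22 and 63.6 ± 2.98 CPM (SD, n = 4 each), with a log2 fold change of 0.18 (SE 0.07, 95% interval 0.02 to 0.34) and an adjusted p of 0.0754. It passed with DESeq2 (adjusted p = 0.0263), when scaled by the upper quartile (0.0288) and when each tumour had to have at least 10 counts (0.0312). The difference between Smad2 and Smad3 was not tested.

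Smad4, the common partner of the receptor-activated SMADs, had nearly the same mean in both groups. Its level was 98.4, 97.3, 103 and 85.9 CPM in VC tumours 1 to 4 and 94.4, 97.1, 97.0 and 89.5 CPM in miR-21-KD tumours 1 to 4. The miR-21-KD values all lay within the range of the VC values. The log2 fold change was -0.03 (SE 0.08, 95% interval -0.21 to 0.15, adjusted p = 0.802). Smad7, the inhibitory SMAD, was also similar in the mean but more spread. Its level was 46.0, 47.4, 52.7 and 40.1 CPM in VC tumours 1 to 4 and 34.1, 56.5, 58.6 and 44.5 CPM in miR-21-KD tumours 1 to 4. miR-21-KD tumour 1 was the lowest of all, and miR-21-KD tumours 2 and 3 were the highest. The log2 fold change was 0.06 (SE 0.17, 95% interval -0.34 to 0.45, adjusted p = 0.810).

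The genes whose pattern over the 8 tumours was most like that of a member past the threshold were named by Pearson's r of log2 CPM, as a description, since the difference between the groups is itself part of each pattern. For Tgfbr1 these were Rnf214 and Chn1, with r of 0.996 each. For Smad3 they were Itga10 (0.991) and Ext2 (0.990), and for Tgfb1 they were Tln1 (0.981) and Nudt17 (0.975).

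Levels were compared between members as CPM per kilobase of the longest coding transcript. In VC tumours the order was Tgfb1 (64.9 ± 2.22), Tgfb3 (49.9 ± 14.4), Tgfbr2 (48.8 ± 3.48), Smad4 (28.5 ± 2.19), Tgfbr1 (27.2 ± 2.99), Smad3 (19.3 ± 3.80), Tgfbr3 (19.2 ± 1.82), Smad7 (10.9 ± 1.21), Smad2 (6.96 ± 0.275) and Tgfb2 (0.981 ± 0.104; SD, n = 4 each). From Tgfb1 to Tgfbr2, and again from Smad4 to Tgfbr3, the values of neighbours in this order overlapped. In miR-21-KD tumours the order was Tgfb1 (75.9 ± 1.28), Tgfbr2 (55.2 ± 13.6), Tgfb3 (32.6 ± 8.09), Smad4 (27.9 ± 1.04), Tgfbr3 (19.0 ± 5.53), Tgfbr1 (16.2 ± 0.983), Smad7 (11.3 ± 2.67), Smad3 (10.6 ± 0.985), Smad2 (7.87 ± 0.368) and Tgfb2 (1.19 ± 0.452). Here the values of neighbours overlapped from Tgfb3 to Tgfbr1, and between Smad7 and Smad3. The values of Tgfbr1 overlapped those of Smad4 in VC tumours and lay below them in miR-21-KD tumours. The place of Tgfb1 depends on the length used: with the union of all annotated exons, which is 5042 bases for Tgfb1 against 2175 for its coding transcript, its level was 28.0 in VC and 32.8 CPM per kilobase in miR-21-KD tumours, and Tgfb3 came first in VC and Tgfbr2 in miR-21-KD tumours.

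The make-up of the ligand pool was described from the same per-kilobase levels. Tgfb1 made up 59.2, 47.1, 58.3 and 62.0% of the summed ligand level in VC tumours 1 to 4 and 72.3, 74.4, 63.9 and 67.4% in miR-21-KD tumours 1 to 4. The share of Tgfb1 was higher in each miR-21-KD tumour than in any VC tumour, and with the exon union it was also without overlap, at 27.8 to 41.4% and 43.3 to 55.8%. By coding transcript, Tgfb3 made up 37.2 to 52.1% in VC and 24.6 to 35.4% in miR-21-KD tumours, and Tgfb2 at most 1.75% in any tumour. With the exon union, Tgfb3 made up 57.6 to 71.3% and 42.8 to 55.6%, and Tgfb2 at most 2.63%. With both lengths Tgfb1 had the largest share in miR-21-KD tumours 1 and 2 and Tgfb3 in VC tumour 2, whereas in the other 5 tumours Tgfb1 was first by coding transcript and Tgfb3 by exon union.

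Single tumours stood apart for several members at once. VC tumour 2 was the highest of all 8 for Tgfb3, Tgfbr1 and Smad3, at 0.86, 0.57 and 0.80 above the mean of the 8 tumours on the log2 scale, and it had the lowest summed level of fibroblast markers (3252 CPM) and of T cell markers (51.4 CPM). It was also the lowest of the 8 for the marker sums of regulatory T cells (49.8 CPM), B cells (1.99 CPM), NK cells (15.9 CPM), dendritic cells (58.4 CPM), adipocytes (94.7 CPM) and platelets and megakaryocytes (108 CPM). miR-21-KD tumour 1 was the highest for Tgfb2, Tgfbr2 and Tgfbr3, at 0.80, 0.54 and 0.54 above that mean, and the lowest for Smad7, at -0.46. It had the highest summed level of fibroblast markers (24294 CPM) and of endothelial markers (989 CPM, against 478 to 808 CPM in VC tumours), the highest sums of T cell (341 CPM), NK cell (110 CPM), dendritic cell (382 CPM) and pericyte and smooth muscle markers (620 CPM), and the lowest epithelial sum (1138 CPM). miR-21-KD tumour 2, the highest of its group for Tgfbr1 and Smad3, had the lowest sums of its group for fibroblast (10918 CPM) and macrophage and monocyte markers (6123 CPM). It was also the lowest of its group for dendritic cell (231 CPM), neutrophil (384 CPM), endothelial (698 CPM), pericyte and smooth muscle (431 CPM), adipocyte (494 CPM) and platelet and megakaryocyte markers (224 CPM). VC tumour 4 had a summed level of B cell markers of 147 CPM, against 1.99 to 5.82 CPM in the other VC tumours, and was the lowest VC tumour for Tgfb2, Tgfb3, Tgfbr3, Smad2, Smad4 and Smad7. It also had the highest VC sums of T cell (190 CPM), NK cell (89.9 CPM) and dendritic cell markers (181 CPM), and the lowest VC epithelial sum (1308 CPM). In the miR-21-KD group, tumour 4 likewise had the highest B cell sum, at 74.4 CPM against 8.92 to 13.2 CPM in the others. The part of these cell types in the results was not tested. The calls of Tgfbr1 and Smad3 held without VC tumour 2, without VC tumour 4 and without miR-21-KD tumour 1. The log2 fold change of Tgfb1 was nearly as large, at 0.22, without VC tumour 2 (adjusted p = 0.0874) or miR-21-KD tumour 1 (0.0574), although its call was lost, and the call held without VC tumour 4.

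**Figure D3:**
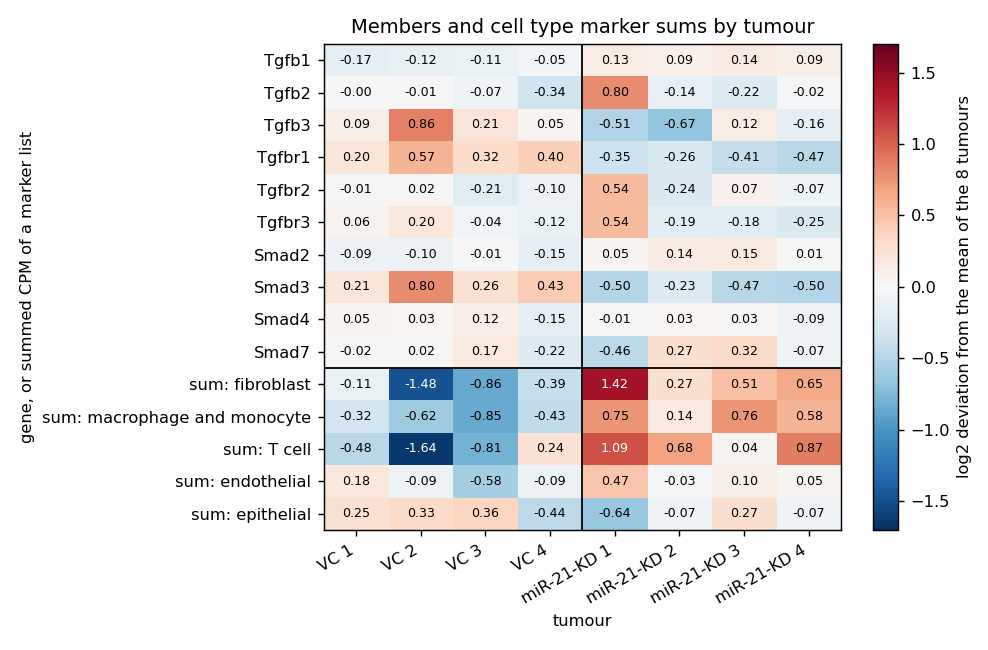
Log2 deviation of each tumour (columns, 4 VC and 4 miR-21-KD) from the mean of the 8 tumours, for the 10 members (upper rows) and for the summed CPM of 5 cell type marker lists (lower rows), with red above and blue below the mean. VC tumour 2 stands out for Tgfb3, Tgfbr1 and Smad3 and for low fibroblast and T cell sums, and miR-21-KD tumour 1 for Tgfb2, Tgfbr2 and Tgfbr3 and for high fibroblast sums.

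The genes around the members were examined as lists, whose counts are to be read against the 39.1% of all genes tested that passed (19.6% higher, 19.5% lower). Of 17 tested genes for the latency and activation of TGF-beta, 7 were higher, 3 lower and 7 did not pass, with a median log2 fold change of 0.36. The 3 that fell were among the 4 listed latent TGF-beta binding proteins, a family of the matrix of which some hold the latent ligand: Ltbp1 (549 ± 116 in VC against 234 ± 111 CPM in miR-21-KD), Ltbp2 (675 ± 98.1 against 304 ± 54.3 CPM) and Ltbp3 (280 ± 62.9 against 145 ± 27.9 CPM; SD, n = 4 each). Their log2 fold changes were -1.23 (adjusted p = 0.0246), -1.15 (0.00523) and -0.94 (0.00929), and the call of Ltbp1 was lost without VC tumour 2 or 3 or miR-21-KD tumour 4 (adjusted p up to 0.0700). The other one, Ltbp4, named after its values were seen, had a log2 fold change of -0.54 (adjusted p = 0.0568), and it passed with the replicate block (0.00389), DESeq2 (0.0353) and without VC tumour 1 (0.0345). Tgm2, a crosslinking enzyme of the matrix, rose by 0.72 (adjusted p = 0.00815), and Furin, the protease that cuts the ligand precursor, rose by 0.60 (0.00922). Lrrc32, which displays latent TGF-beta on regulatory T cells, had a log2 fold change of 0.50 (adjusted p = 0.0523), and it passed in 7 of 15 alternatives, such as the replicate number as a block (0.0155), DESeq2 (0.0240) and the fit without VC tumour 1 (0.0200) or miR-21-KD tumour 2 (0.0348). The activating integrin subunit Itgb6 was near the floor in VC tumours, at 0.663, 0, 0.236 and 0 CPM, against 2.02, 0.864, 2.35 and 1.41 CPM in miR-21-KD tumours 1 to 4 (adjusted p = 0.0260, and up to 0.0706 when VC tumour 2 or 3 or miR-21-KD tumour 1, 3 or 4 was left out). Itgb8 was too low to be tested, and the activator Thbs1 had a log2 fold change of 0.16 (adjusted p = 0.653).

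Among the 12 tested co-receptors and other receptors of the superfamily, 2 were higher, 3 lower and 7 did not pass, with a median log2 fold change of 0.17, beside 39.1% of all genes that passed. The type I receptors Acvrl1 and Acvr1b rose by 1.18 (adjusted p = 0.00850) and 0.61 (0.00729). The type I receptor Bmpr1a and the endothelial co-receptor Eng had log2 fold changes of -0.50 (adjusted p = 0.0127) and -0.46 (0.00931), and the pseudoreceptor Bambi one of 0.21 (0.637). The other gene that fell, the type I receptor Acvr1, was named after its values were seen, with -0.48 (adjusted p = 0.0295, and up to 0.0804 without VC tumour 1, 2 or 3 or miR-21-KD tumour 1 or 4). Of 15 tested other ligands and antagonists of the superfamily, 7 were higher, 2 lower and 6 did not pass, with a median of 0.78, beside 39.1% of all genes. A further 13 of the 28 listed were too low to be tested. Bmp7 rose by 1.98 (adjusted p = 0.0102) and the activin subunit Inhbb by 0.78 (0.0122), and the subunit Inhba had a log2 fold change of 1.22 (0.0643). Without VC tumour 1, that of Inhba was 1.88 (adjusted p = 0.00770), and it also passed with the replicate block (0.0109), DESeq2 (0.0202) and limma-voom (0.0310), while the adjusted p reached 0.152 with another tumour left out. Gdf11 and Bmp2 had log2 fold changes of -0.71 (adjusted p = 0.0198) and -0.71 (0.0467). The call of Gdf11 was lost without VC tumour 2 or 3 or miR-21-KD tumour 3 or 4 (adjusted p up to 0.0632), and that of Bmp2 on leaving out any tumour except VC tumour 3 (up to 0.108), with the replicate block (0.0524), when scaled by the upper quartile (0.0571) and with a minimum of 10 counts per tumour (0.0614). Without miR-21-KD tumour 4, 5 genes of the list and 23.3% of all genes passed. Gdf15 was too low to be tested.

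Of 29 tested other SMADs and SMAD regulators, 3 were higher, 4 lower and 22 did not pass, with a median log2 fold change of -0.07, beside 39.1% of all genes that passed. This count was 12 with the replicate block, where 45.1% of all genes passed. It was 3 without VC tumour 2 (22.5% of all genes) or VC tumour 3 (20.1%), and 4 without miR-21-KD tumour 3 (25.8%). Zfyve9, the anchor that brings Smad2 and Smad3 to the receptor, and the SMAD corepressor Tgif2 fell, with log2 fold changes of -0.58 (adjusted p = 0.00978) and -0.93 (0.00828). Pmepa1, a feedback inhibitor, rose by 0.88 (0.0112), and the ubiquitin ligase Rnf111 rose by 0.32 (0.0171, and up to 0.0600 without VC tumour 2 or 3). The other 3 past the threshold were named after their values were seen. Dab2 had a log2 fold change of 0.63 (adjusted p = 0.0247, and up to 0.0756 without VC tumour 2, 3 or 4 or miR-21-KD tumour 1 or 3). Fkbp1a had -0.32 (0.0238, and up to 0.0695 without VC tumour 1, 2 or 3 or miR-21-KD tumour 1, 3 or 4). Ctdsp1 had -0.31 (0.0234, and up to 0.0662 without VC tumour 2 or 3 or miR-21-KD tumour 3 or 4). The inhibitory Smad6, the ubiquitin ligase Smurf2 and the corepressors Ski and Skil, like Smad7, did not pass, with log2 fold changes of -0.30, -0.07, -0.08 and 0.13 and adjusted p of 0.284, 0.623, 0.511 and 0.391.

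All 42 listed genes known to rise with TGF-beta were tested, and 27 were higher, 4 lower and 11 did not pass, with a median log2 fold change of 0.77. Over all genes tested, 19.6% were higher and 19.5% lower, with a median of -0.01. Without VC tumour 3 the count past the threshold was 19, and 20.1% of all genes passed in that fit. Tgm2, Itgb6, Ltbp2 and Thbs1 are also counted in the list for latency and activation, and Pmepa1 and Skil in that of SMAD regulators. Ccn2 (72.0 ± 17.7 against 166 ± 18.3 CPM) and Tgfbi (491 ± 65.6 against 948 ± 122 CPM; SD, n = 4 each) rose by 1.20 (adjusted p = 0.00558) and 0.95 (0.00569). The matrix protein Fn1 rose by 1.75 (adjusted p = 0.00585) and its receptor subunit Itga5 by 0.69 (0.00602). The 11 that did not pass included Skil, with a log2 fold change of 0.13 (adjusted p = 0.391), and Thbs1, with 0.16 (0.653). The 4 that were lower were Ltbp2 (above), Tpm1 (-0.59, adjusted p = 0.00635), Pthlh (-1.69, 0.00749) and Hmga2 (-1.51, 0.0257, and up to 0.0724 without VC tumour 2 or 3 or miR-21-KD tumour 3 or 4). Of the list, 4 genes are also listed markers of fibroblasts (9 of 11 tested markers higher) or of pericytes and smooth muscle (5 of 8 higher and 1 lower, with summed levels of 324 to 454 CPM in VC and 431 to 620 CPM in miR-21-KD that overlap), and without them 23 of 38 were higher and 4 lower, with a median of 0.74. The part of these cells in the other rises was not tested.

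**Figure D4:**
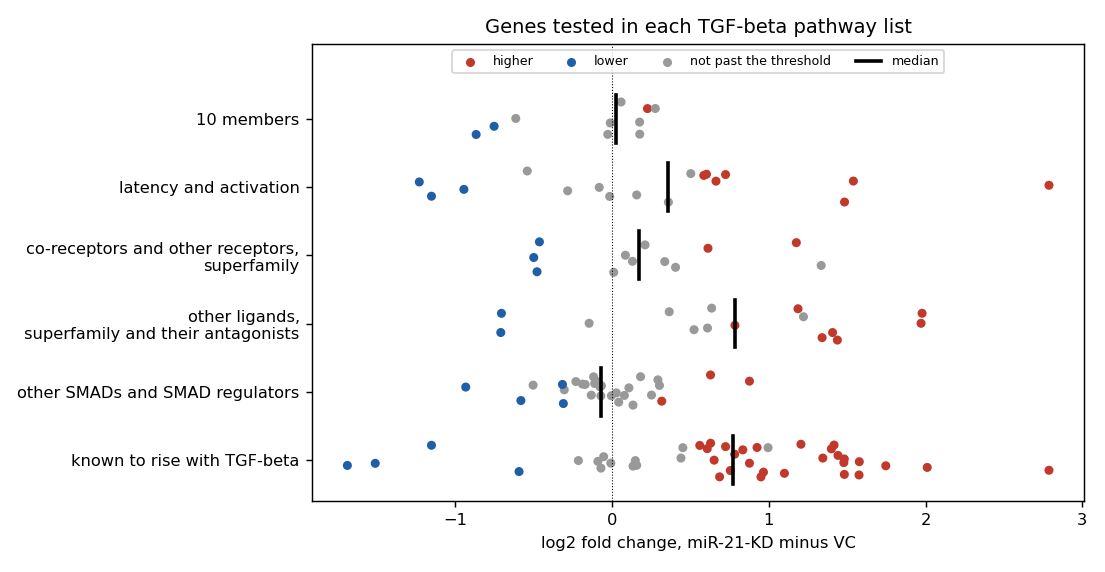
Log2 fold change, miR-21-KD minus VC (horizontal axis), of each tested gene in the members and in the 5 lists of other pathway genes (rows, with points spread vertically for legibility), with red for higher, blue for lower, grey for genes not past the threshold and a black bar at the median. The members centre on 0.02, whereas the genes known to rise with TGF-beta centre on 0.77 with 4 of them lower. A gene that belongs to several lists is plotted in each of them.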

How the data were processed

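RNA was sequenced from 8 whole tumours. The deposited table holds the authors' raw read counts, 1 column per tumour and 1 row per Entrez gene identifier, with no normalization. The submitters' processing notes name Subread, featureCounts, edgeR, limma and the build mm10. The annotation, the use of strand and the library type are not given in the sources used here. Symbols came from the GRCm38.p6 annotation and matched 25275 of 27179 identifiers.

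Counts were analysed in R 4.3.3 with edgeR 4.0.16. The filter filterByExpr (minimum count 10, minimum total 15) kept 14382 genes with 99.852% of the reads and removed 12797. After TMM scaling, a robust quasi-likelihood fit over the 8 tumours, without covariates, tested miR-21-KD minus VC. P-values were adjusted by Benjamini-Hochberg over all genes tested, with a threshold of 0.05. CPM values use TMM-scaled library sizes, and log2 CPM used a prior count of 2. Any 2 tumours of a group differed by more than sampling noise. Replicates are separate tumours per the labels.

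The members, the gene lists and the marker lists were chosen with earlier results of these data known. The text names the 10 members, a fixed set of 17 other pathway genes, the 2 genes of smallest adjusted p in each direction of each list (4 in the list of genes known to rise with TGF-beta) and, for each member past the threshold, the 2 tested genes of highest correlation with it. For 1 gene that this rule selects, no values are reported here. The call for a gene was higher or lower at an adjusted p under 0.05.

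Both groups have tumours numbered 1 to 4 in the labels. After removal of the group means, same-numbered tumours correlated at 0.175 to 0.421 (mean 0.311), and the 12 other combinations at -0.393 to 0.393 (mean -0.105). Values with the replicate number as a block are given where they change a call. The alternatives were DESeq2 1.42.0, upper-quartile scaling, library size alone, no filter, a minimum of 10 counts per tumour, voom (limma 3.58.1), the block, and each tumour left out in turn. The list without marker genes and the exon-union length were alternatives chosen after seeing the data. Lengths and UTRs came from GENCODE M21, and promoters and the miRNA from RefSeq. Every column of the table was used, and protein sequences were not used here.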

Additional observations from a re-analysis of the deposited data

Results flagged for a closer look

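Among 44 named genes in 2 groups of 4 tumours, the highest or lowest tumour of 6 groups lay far from the other 3 by Dixon's criterion, and chance alone gives about 5% of groups. Of these, 4 concerned members. Tgfb2 was 9.52 CPM in miR-21-KD tumour 1, and the next tumour of the group was at 5.31 CPM and the lowest at 4.62 CPM. Tgfbr3 was 166 CPM in the same tumour, and the other 3 lay between 96.1 and 101 CPM. Tgfb3 was 241 CPM in VC tumour 2, and the other 3 lay between 138 and 154 CPM. Smad3 was 61.4 CPM in miR-21-KD tumour 2, and the other 3 lay between 50.9 and 52.2 CPM, all below the VC tumours. Among the receptors of other ligands, Bmpr1a was lowest at 90.3 CPM in VC tumour 4, and the other 3 lay between 121 and 124 CPM. The pseudoreceptor Bambi was lowest at 2.44 CPM in VC tumour 3, and the other 3 lay between 4.70 and 5.08 CPM.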

How the results depend on the processing

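The calls of Tgfbr1 and Smad3 held under all 15 alternatives, and that of Tgfb1 under 8 of 15. Members past the threshold numbered 5 with DESeq2 and 2 to 3 with 1 tumour left out. With 1 tumour left out, the count over all genes was 2936 to 6840, over other ligands and antagonists 5 to 11, over other SMADs and SMAD regulators 3 to 9 and over genes known to rise with TGF-beta 19 to 31. The cause was not tested. With the replicate block the count of SMADs and SMAD regulators was 12, and that of all genes 6485 (45.1%). The block also changed the calls of Lrrc32, Ltbp4, Inhba and Bmp2, and of no other named gene.

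The sign of some members that did not pass turned. Tgfbr3 had log2 fold changes of 0.0086 with DESeq2, 0.0352 when scaled by the upper quartile and 0.0431 with a minimum of 10 counts per tumour, and -0.24 to 0.0686 with 1 tumour left out. Smad4 had 0.0164 when scaled by the upper quartile, 0.0244 with a minimum of 10 counts per tumour, and -0.0832 to 0.0023 with 1 tumour left out. With 1 tumour left out, the range was -0.0239 to 0.39 for Tgfb2, -0.0018 to 0.27 for Tgfbr2, -0.0481 to 0.19 for Smad7, -0.0836 to 0.32 for Thbs1 and -0.0606 to 0.37 for Bambi. Scaling moved the median of all genes to between -0.04 and 0.03 on the log2 scale. The depth limits the genes of low count, such as Tgfb2 and Itgb6. The order of the members per kilobase depends on the length used.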
